A study of Sus scrofa with 70 samples.

Results

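The vesicular gland (VG) and the prostate gland (PG) are accessory sex glands of the boar that both empty into the urethra. Their microRNAs (miRNAs) were compared here in 12 small RNA libraries, 6 of VG and 6 of PG, chosen by tissue alone out of 30 small RNA libraries and 70 samples in the whole series. Each gland was represented by 3 libraries from the Banna mini-pig inbred line (BMI) and 3 from the Diannan small-ear pig (DSE), all from boars aged 12 months that were not described as treated. Nothing in the labels says whether a VG and a PG library came from the same boar, so p-values measure the spread between these libraries. Levels are in RPM, for which a miRNA's reads are divided by all miRNA reads of the library and scaled to a fixed total. These reads numbered 14218425 to 20126161 in VG and 13069176 to 21682334 in PG. Of the table's entries, each a mature miRNA with a precursor, 526 reached 1 RPM in at least 3 of the 30 libraries and were tested. They carry 468 distinct names, 315 of known pig miRNAs and the others of predicted ones that the authors named by position.

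A miRNA is cut from a hairpin precursor and guides a silencing complex to mRNAs, mainly through its seed, bases 2 to 8 from the 5′ end. Precursors that lie close together on one strand are often transcribed as a unit, and those in introns can share the transcript of the host gene. In epithelial organs some miRNAs are known for marking cell types, among them miR-375 and the miR-182, miR-183 and miR-96 cluster in secretory and neuroendocrine cells, miR-205 in basal cells and the miR-200 family in epithelia at large.

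The mature sequences of the miRNAs on which the comparison turned are shown with the seed in capitals, as given by RefSeq for Sscrofa11.1, the build the authors used. For 38 of the 51 known names called different between the glands a RefSeq sequence was matched by exact name. The first set was higher in PG, with miR-182, miR-183 and miR-96-5p from a single cluster and miR-450a and miR-450b-5p from another.
miR-182: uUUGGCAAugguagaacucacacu
miR-183: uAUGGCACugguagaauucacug
miR-96-5p: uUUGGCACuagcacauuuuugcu
miR-874: cUGCCCUGgcccgagggaccgac
miR-885-5p: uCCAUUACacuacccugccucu
miR-450a: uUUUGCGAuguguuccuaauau
miR-450b-5p: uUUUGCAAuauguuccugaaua
miR-30d: uGUAAACAuccccgacuggaagcu

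The second set was higher in VG, and in it miR-221-3p and miR-222 carry the same seed.
miR-31: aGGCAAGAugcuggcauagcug
miR-205: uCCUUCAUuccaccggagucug
miR-221-3p: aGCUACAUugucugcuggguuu
miR-222: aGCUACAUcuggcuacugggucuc
miR-29b: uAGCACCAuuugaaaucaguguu
miR-10b: uACCCUGUagaaccgaauuugu
miR-429: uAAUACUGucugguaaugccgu

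Several libraries stood apart from others of their gland. In BMI PG replicate 2, of 17 entries called higher in VG when it was left out, 15 lay above every other PG library and 13 lay within the range of VG. The median entry lay 61.3% of the way from the mean of the other PG libraries to the mean of VG. The RNA-seq library of the same name held 169569 TPM (an mRNA level per transcript length, scaled to a fixed total) of PSP-I, the main spermadhesin of seminal plasma, against 1.04 to 9.20 TPM in the other PG libraries and 216153 to 261758 TPM in VG. It also held 88607 TPM of MSMB, a secreted protein of the prostate, against 102927 to 178304 TPM in the other PG libraries and at most 9.40 TPM in VG. On the 47 entries called higher in PG without BMI PG replicate 2, its median entry lay 24.1% of the way to VG, and other libraries lay further towards the other gland. The median entry lay 72.7% of the way to VG in BMI PG replicate 3 (over 72 entries called without it). It lay 62.7% of the way in DSE PG replicate 1 (over 35 entries) and 44.5% in DSE PG replicate 3 (over 34 entries). In BMI VG replicate 2 it lay 58.1% of the way to PG (over 68 entries). These positions are in RPM, and whether they follow its scaling was not tested. Size factors, which rescale a library by a median of ratios, were 0.959, 0.872 and 1.015 in those PG libraries. They were 1.393 and 1.395 in BMI PG replicate 1 and DSE PG replicate 2, at -24.6% and -28.6%. The highest factor, 1.467, was that of BMI PG replicate 2, at 24.1%. In VG, BMI VG replicate 2 had the highest factor and DSE VG replicate 3, at -26.0%, the lowest. In a principal component analysis BMI VG replicate 1 and BMI PG replicate 3 lay at -17.6 and -14.6 on the second component, where the other 10 libraries lay between -1.56 and 6.74. Without BMI VG replicate 1 or 2, 60 or 82 entries were called between the glands against 63 over all 12 libraries.

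Apart from BMI PG replicate 2, the secretory markers separated the glands as labelled. The 4 spermadhesin and seminal plasma genes found (PSP-I, PSP-II, AWN and BSP1) summed to 317135 to 399306 TPM in VG and 2.14 to 15.4 TPM in PG without BMI PG replicate 2. Of the other prostate markers given here, KLK1 and KLK4 were at or near 0 in both glands and ACP3 stayed below 9 TPM.

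Between the glands, 63 of 526 entries were called by limma on log2(RPM + 1) with breed as a term, at a p of under 0.05 after Benjamini-Hochberg adjustment over all 526 and a log2 difference of 1 or more. Of these, 47 entries were higher in PG, which is 8.94% of the entries tested, and 16 were higher in VG, which is 3.04%. Without BMI PG replicate 2 the counts were 47 (8.94%) and 17 (3.23%), and 55 entries were called in both fits. Leaving out some other libraries moved the count more. It was 37 without DSE VG replicate 1, 39 without DSE PG replicate 2 and 41 without DSE VG replicate 3, with 25, 25 and 27 higher in PG, and 87 without BMI PG replicate 3, with 72 higher in PG. The balance between the directions moved with the scaling. A pair of miRNAs, miR-148a-3p and miR-143-3p, took 52.6% to 71.2% of the miRNA reads of a library, and median-of-ratios size factors moved the log2 differences by a median of 0.33 towards VG. With these factors 21 entries (3.99%) were higher in PG and 30 (5.7%) in VG, with 37 entries called in both fits. On read numbers worked back from RPM, DESeq2 called 43 higher in PG and 41 in VG, and edgeR 33 and 39. The median log2 difference over all entries was -0.16 in RPM and 0.02 with size factors. In 23 entries (4.37%) the libraries of the glands did not overlap, 20 with PG above VG and 3 with VG above PG. Across the main fit and all its alternatives, 27 entries were called wherever a test gave an adjusted p, 17 higher in PG and 10 higher in VG.

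**Figure D1:**
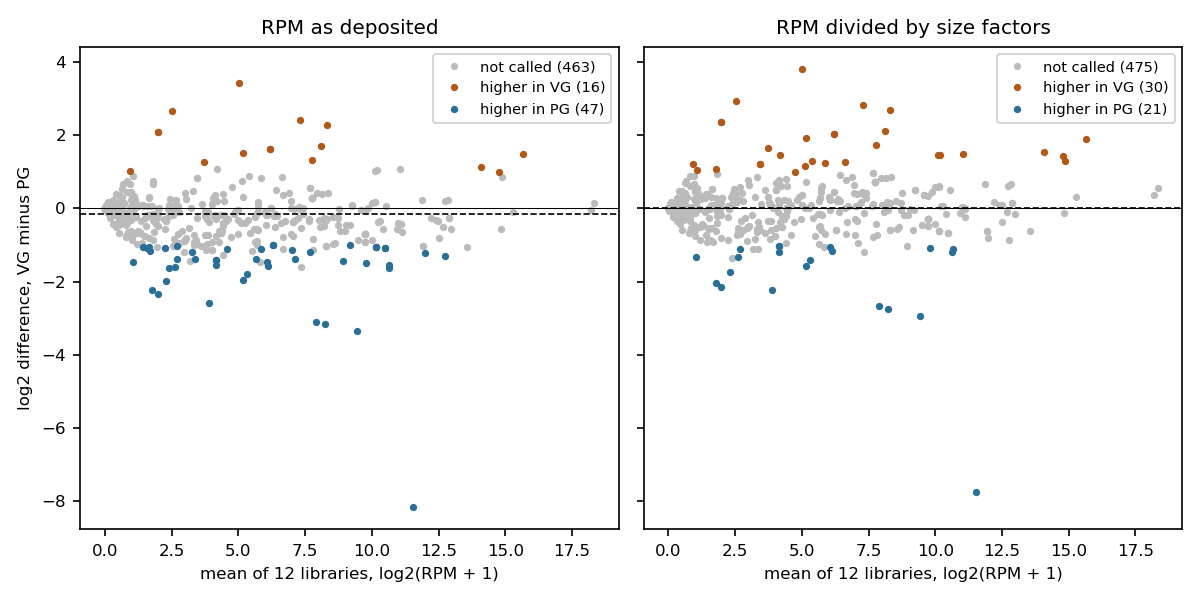
Log2 difference, VG minus PG, of each of 526 miRNA entries against its mean over 12 libraries as log2(RPM + 1), in RPM as deposited (left) and after division by median-of-ratios size factors (right). Orange points were called higher in VG and blue points higher in PG, and the dashed line is the median of all entries, which moves from -0.16 to 0.02 while the calls move from 16 and 47 to 30 and 21.

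The miRNA with the largest difference was miR-375, known from islet and neuroendocrine cells and from prostate epithelium. It ranged from 6.30 to 47.5 RPM in VG, with a median of 16.7, and from 2486 to 12320 RPM in PG, with a median of 4487. Every PG library lay far above every VG library, BMI PG replicate 2 included at 4406 RPM. The log2 difference, VG minus PG, was -8.17 with a standard error (SE) of 0.47 (limma adjusted p = 2.03e-06), and the ratio of the mean RPM was 297. In bulk tissue, fewer cells of a type and less RNA per cell cannot be told apart.

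The cluster of miR-183, miR-96 and miR-182 on chromosome 18 was also higher in PG. The mature miR-183 lies at chr18:18982274-18982296, miR-96-5p at chr18:18982516-18982538 and miR-182 at chr18:18986840-18986863, all on the plus strand and outside annotated genes. In VG, miR-182 ranged from 49.2 to 308 RPM with a median of 80.8, and in PG from 540.5 to 2839 RPM with a median of 965. Its glands did not overlap, and the log2 difference was -3.36 (SE 0.42, limma adjusted p = 0.0014). For miR-183 the range was 30.0 to 73.6 RPM in VG and 232 to 792 RPM in PG, with a log2 difference of -3.09 (SE 0.31, limma adjusted p = 0.00028). For miR-96-5p the range was 21.4 to 198.7 RPM in VG and 193 to 1449 RPM in PG, so that the lowest PG library, BMI PG replicate 2, lay below the highest VG library, BMI VG replicate 1. Its log2 difference was -3.17 with an SE of 0.55 (limma adjusted p = 0.0054). In PG the mean level was 1250 RPM for miR-182, 426 RPM for miR-183 and 540.9 RPM for miR-96-5p.

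**Figure D2:**
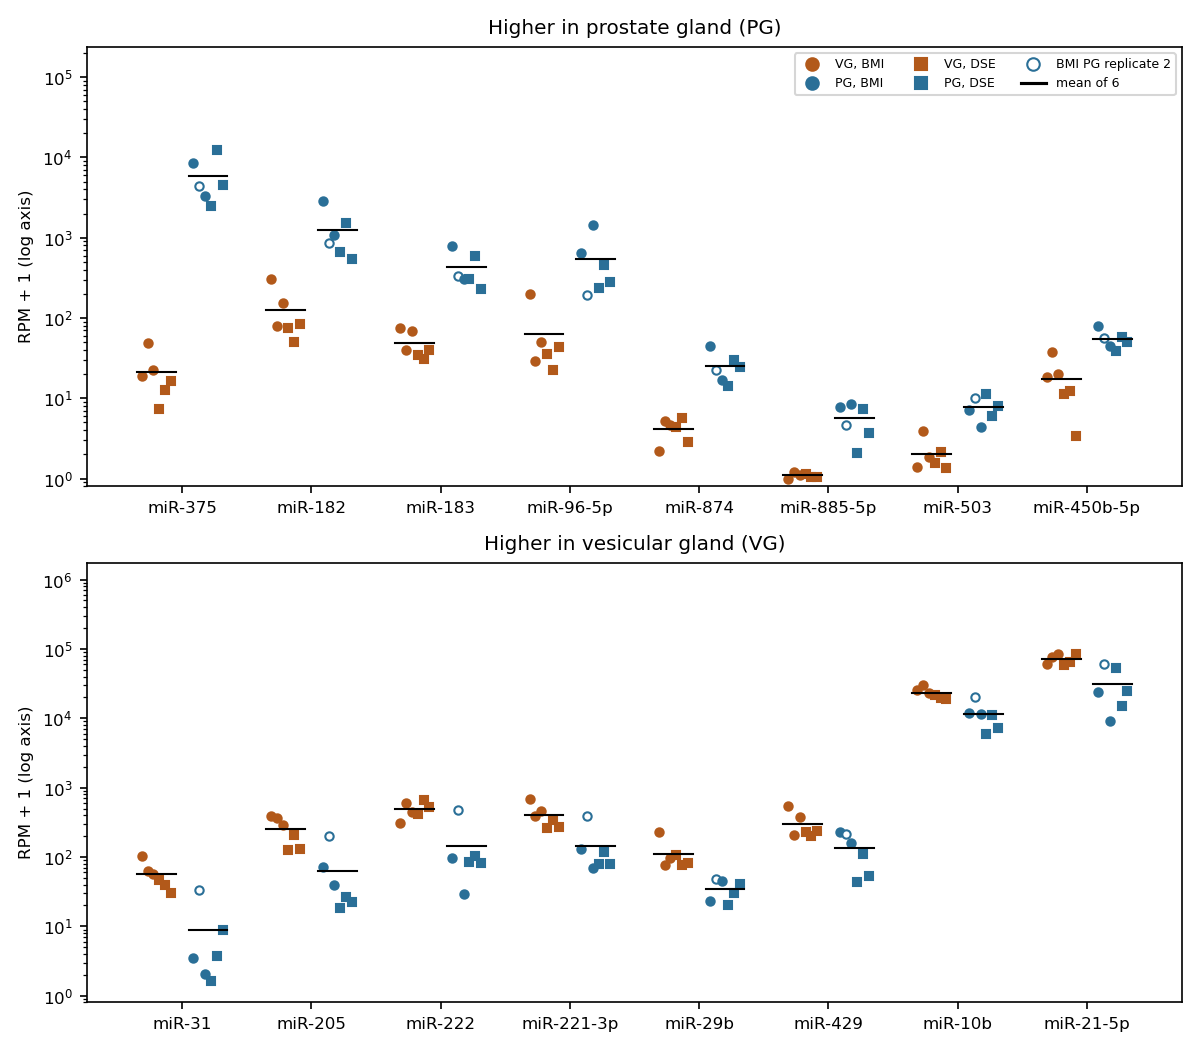
RPM + 1 on a log axis for 8 miRNAs higher in PG (top) and 8 higher in VG (bottom), 1 point for each of 12 libraries, with circles for BMI, squares for DSE and a bar for the mean of 6 libraries. The open circle is BMI PG replicate 2, which lies among the PG libraries for miR-375 at 4406 RPM and near the VG libraries for miR-222 at 471.5 RPM.

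A second cluster, on chromosome X, was also higher in PG. Here miR-450b-5p (chrX:110381637-110381658, minus strand) and miR-450a (chrX:110381803-110381824, minus strand) lie within 10 kb of miR-542. In VG, miR-450b-5p ranged from 2.36 to 36.4 RPM and in PG from 38.1 to 78.0 RPM, with a log2 difference of -1.96 (SE 0.40, limma adjusted p = 0.010). The levels of miR-450a ranged from 3.29 to 45.0 RPM in VG and 46.8 to 78.1 RPM in PG, a log2 difference of -1.78. The related miR-503 and miR-424-5p, members of the miR-15 and miR-16 seed group that act on cell cycle mRNAs, differed by -1.97 and -1.60 with no overlap of the glands. In the list of that group, 3 of 8 names were called, all higher in PG (9.19% of all 468 names were), with a median log2 difference of -0.50 against -0.15 over all 468 names. The third, miR-424-3p at -1.07, is the other arm of the miR-424 precursor, so the list counts names and not seeds. It was not called with size factors.

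Several miRNAs higher in PG lie in introns of genes whose mRNA was measured in RNA-seq libraries of the same glands. The mRNA test covered 19796 genes, of which 11.3% were called higher in PG and 3.26% higher in VG. Both arms of miR-885 lie on the minus strand of chromosome 13, miR-885-5p at chr13:66597571-66597592, in an intron of ATP2B2, a calcium pump of the plasma membrane. In VG, miR-885-5p was at 0 to 0.21 RPM and in PG at 1.06 to 7.61 RPM, a log2 difference of -2.22 (SE 0.30, limma adjusted p = 0.0016). Outside PG it reached at most 0.62 RPM in any tissue, so it was tested only because it was high in PG. Its p is therefore no separate support for the difference. The ATP2B2 mRNA was at 0 to 0.096 TPM in VG and 5.19 to 13.7 TPM in PG, a log2 difference of -3.48 (SE 0.20, limma adjusted p = 5.91e-06). At so few RPM the difference on the log2(RPM + 1) scale understates the ratio.

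The same direction in miRNA and host was found for miR-874 (chr2:139660128-139660150, minus strand) and KLHL3, an adaptor of a ubiquitin ligase. For miR-874 the range was 1.19 to 4.62 RPM in VG and 13.1 to 43.3 RPM in PG, a log2 difference of -2.59 (SE 0.35, limma adjusted p = 0.0016). For KLHL3 mRNA it was 0.27 to 0.64 TPM in VG and 3.70 to 9.59 TPM in PG, a log2 difference of -2.29. The hosts AATK of miR-338, WWP2 of miR-140 and EVL of miR-342 were also called higher in PG, at -2.16, -1.16 and -1.24, beside miRNA differences of -1.63 for miR-338, -1.62 for miR-140-3p and -1.20 for miR-342. With size factors miR-338 and miR-342 were not called. Nor was miR-338 without BMI PG replicate 1 or 3, BMI VG replicate 3 or any 1 of the DSE VG libraries, or miR-342 without BMI PG replicate 1, DSE PG replicate 2 or DSE VG replicate 1 or 3. In other pairs the host was not called. NFYC, host of miR-30c-5p, had -0.74 (limma adjusted p = 0.010), under the fold asked for, beside -1.09 for the miRNA, whose identical mature copy on chromosome 1 lies in another gene, so that its reads cannot be assigned to NFYC. TMEM164, host of miR-652, had a log2 difference of 0.08 (limma adjusted p = 0.75) where miR-652 was called higher in VG at 1.02, and EGFL7, host of miR-126, had -0.19 (limma adjusted p = 0.47) where miR-126-3p had -1.23. Without DSE PG replicate 1, DSE PG replicate 2 or DSE VG replicate 1 miR-652 was not called.

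**Figure D3:**
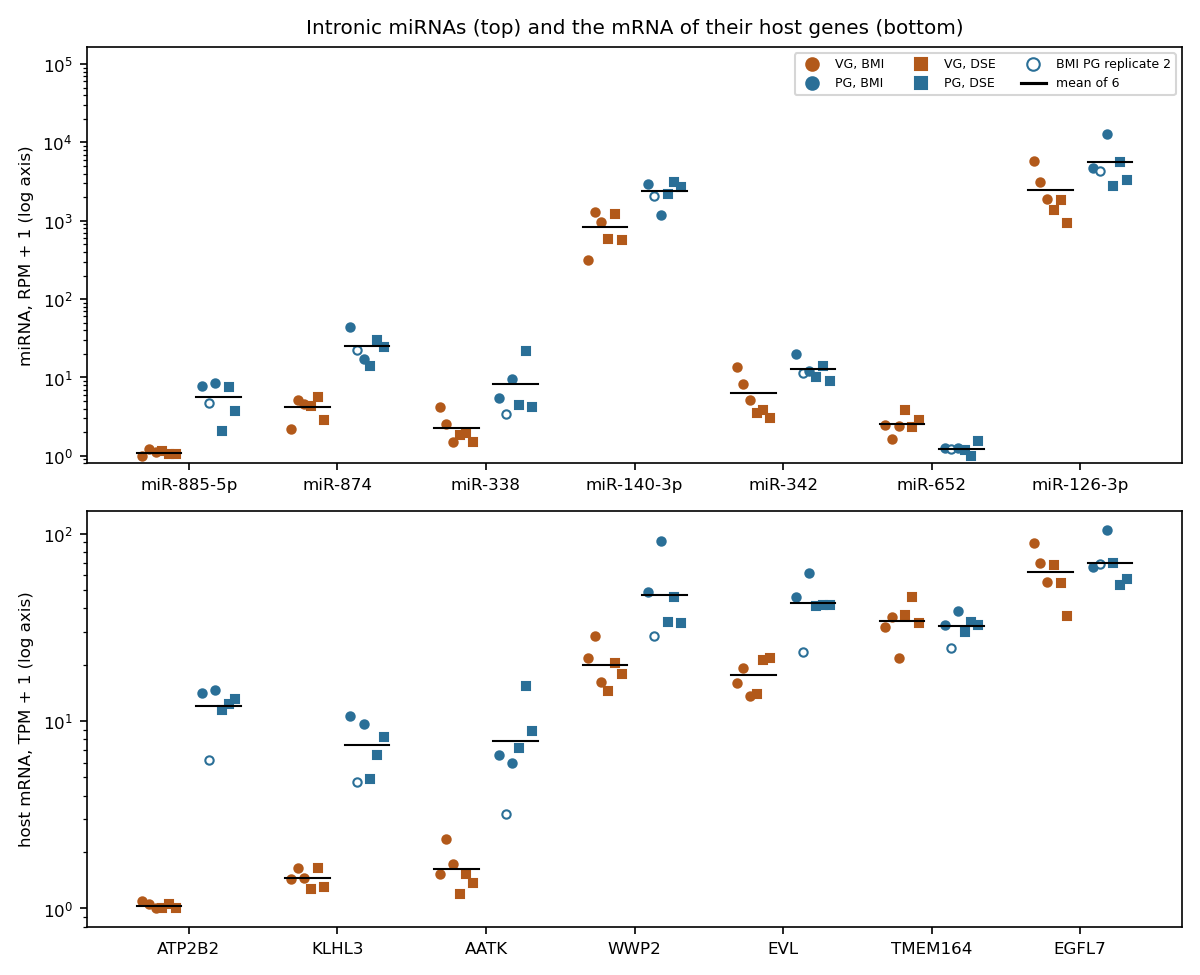
Intronic miRNAs as RPM + 1 (top) and the mRNA of their host genes as TPM + 1 (bottom), both on log axes, 1 point for each library with circles for BMI and squares for DSE, bars for means of 6 and an open circle for BMI PG replicate 2. ATP2B2 and KLHL3 separate the glands as miR-885-5p and miR-874 do, while TMEM164 and EGFL7 overlap.

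Among the miRNAs higher in VG, miR-31 (chr1:201198742-201198763, plus strand), known from squamous and other epithelia, had the largest difference on the log2(RPM + 1) scale. It ranged from 29.2 to 101 RPM in VG with a median of 50.6, and from 0.65 to 32.5 RPM in PG with a median of 2.59. The highest PG value was that of BMI PG replicate 2, and the other PG libraries reached 7.88 RPM. The log2 difference was 3.42 (SE 0.65, limma adjusted p = 0.0064) and without that library 3.95 (SE 0.47, limma adjusted p = 0.00082).

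The basal cell miRNA miR-205 (chr9:133517119-133517140, minus strand) ranged from 126.9 to 395 RPM in VG with a median of 244. In PG it ranged from 17.5 to 71.7 RPM in 5 libraries and was at 200 RPM in BMI PG replicate 2. The log2 difference was 2.42 (SE 0.35, limma adjusted p = 0.0027) and without that library 2.74 (SE 0.21, limma adjusted p = 4.19e-05). By mRNA, the basal markers KRT5 and TP63 were also called higher in VG, at 3.20 and 1.52, and so were the urothelial genes UPK2 and UPK3A, at 3.40 and 3.72. The urothelial gene UPK1B had 0.62 and was not called, and UPK1A was too low to be tested. Of the other epithelial markers, KRT18 and EPCAM were called higher in PG, at -2.28 and -1.65, and CDH1 higher in VG, at 1.05, while KRT8 and KRT19 had -0.52 and -0.74 and were not called. The part of cell composition in the miRNA differences was not tested.

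The pair miR-221 and miR-222 lies on the minus strand of chromosome X, miR-221-3p at chrX:40571073-40571094 and miR-222 at chrX:40571814-40571837, and is known for acting on a cell cycle inhibitor. In VG, miR-222 ranged from 307 to 654.1 RPM with a median of 491, and in PG from 27.9 to 101 RPM in 5 libraries, with 471.5 RPM in BMI PG replicate 2. The log2 difference was 2.27 (SE 0.54, limma adjusted p = 0.017) and without that library 2.77. The same held for miR-221-3p at 1.69 and for the other arm, miR-221-5p, at 1.52, so that all 3 names of the pair were called higher in VG (3.21% of all 468 names were). All 3 were called in each of the 12 fits that left out a library.

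Of 2 known miRNAs with every VG library above every PG library, miR-29b, known for acting on collagen mRNAs, was the more abundant. It ranged from 74.8 to 231 RPM in VG and from 19.1 to 47.8 RPM in PG, a log2 difference of 1.63 (SE 0.31, limma adjusted p = 0.0064). RefSeq places it on chromosomes 9 and 18, and reads of the identical mature copies cannot be told apart. Its seed is shared with miR-29c, which was not called.

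In the HOX clusters, miR-10b (chr15:81951653-81951674, plus strand) ranged from 19290 to 29930 RPM in VG and 5990 to 20411 RPM in PG, the highest PG value again being BMI PG replicate 2. Its log2 difference was 1.12 (SE 0.21, limma adjusted p = 0.0064), and 1.26 without that library. Its seed relative miR-10a-5p, at 38169 ± 10273 RPM in VG and 21654 ± 8428 RPM in PG (SD, n = 6 each), had a log2 difference of 0.87 and was called with size factors, TMM factors, edgeR or DESeq2. In the other direction, miR-196a and miR-196b-5p had -1.09 and -1.001 and were not called with size factors, and miR-196a was not called without BMI PG replicate 2, at -0.93.

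The epithelial list was divided. Of all 468 names 3.21% were called higher in VG and 9.19% higher in PG. Of the 10 names of the list, 4 were called higher in VG (miR-31, miR-205, miR-429 and miR-200b) and 4 higher in PG (miR-375, miR-182, miR-183 and miR-96-5p), also with size factors and without BMI PG replicate 2. The median log2 difference of the list was 0.08. The other names, miR-141 of the miR-200 family and miR-192, had 0.40 and -0.23 and were not called. For miR-429 (chr6:63491970-63491991, plus strand) the range was 202.6 to 542 RPM in VG and 42.8 to 226 RPM in PG, with a log2 difference of 1.32 that was not called without the breed term. For miR-200b the log2 difference was 1.002, and 1.14 without BMI PG replicate 2. It was not called in 7 of the 12 fits with a library left out.

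**Figure D4:**
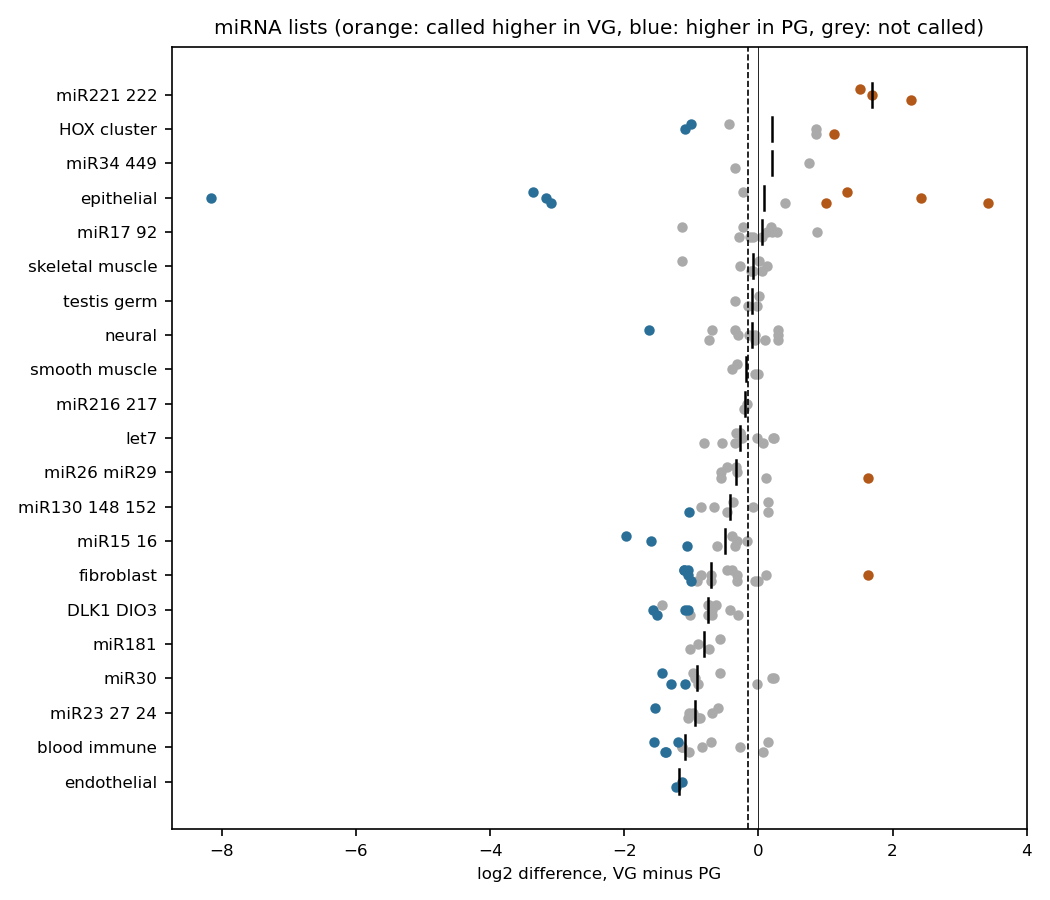
Log2 difference, VG minus PG, of the members of 21 miRNA lists, 1 point for each name and a vertical bar for the median of a list, without miR-885. Orange marks names called higher in VG and blue names called higher in PG, and the dashed line is the median over all 468 names at -0.15. The epithelial list spreads from miR-375 at -8.17 to miR-31 at 3.42.

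In the lists for stroma, vessels and blood, most called names were higher in PG in RPM, and much of this depended on scaling. Over all 468 names, 9.19% were called higher in PG and 3.21% higher in VG, against which the counts of these lists are to be read. In the miR-30 list, drawn up by family and not by cell type, 3 of 10 names were called higher in PG. Among them miR-30d ranged from 3263 to 4439 RPM in VG and 5856 to 15659 RPM in PG without overlap (log2 difference -1.30). With size factors 0 of the 10 were called. The fibroblast list had 5 of 17 names higher in PG, 3 of them miR-199 names of which miR-199a-3p and miR-199b-3p overlap in sequence with an offset and have nearly equal values, and 1 higher in VG, miR-29b. With size factors 0 of the 17 were higher in PG, and without BMI PG replicate 2 there were 2, miR-199b-5p and miR-214-3p. Both endothelial names, miR-126-3p and miR-126-5p, were called higher in PG at -1.23 and -1.13 but not with size factors, and by mRNA 3 of 5 endothelial markers were called higher in PG (11.3% of all genes tested were), PECAM1 at -2.06, CDH5 at -1.54 and KDR at -1.01, while VWF and EGFL7 had -0.45 and -0.19 and were not called. In the blood and immune list 4 of 12 names were higher in PG (miR-142-5p, miR-155-5p, miR-150 and miR-342), 2 with size factors and 5 without BMI PG replicate 2. Of these, miR-142-5p and miR-155-5p were not called without DSE VG replicate 1, and miR-150 was not called in 10 of the 12 fits with a library left out. The same was true of miR-199a-3p in 10 fits and of miR-126-3p in 9. By mRNA, of 6 immune markers PTPRC was called higher in PG at -1.38 and CD68 higher in VG at 1.49, and CD3E was called higher in PG at -1.04 without BMI PG replicate 2, while 0 of 5 fibroblast, 6 smooth muscle and 3 erythrocyte markers found were called.

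The list drawn up for the imprinted DLK1-DIO3 region included miR-885 in error. Of its other 14 names, 4 were called higher in PG (miR-127, miR-381-3p, miR-136-3p and miR-382), 2 with size factors and 3 without BMI PG replicate 2, with a median log2 difference of -0.75. With a library left out, miR-136-3p was not called in 8 of 12 fits and miR-382 in 9, and miR-127 was not called with the replicate number as a block. Of the most abundant member, miR-381-3p, there were 527 ± 352 RPM in VG and 1240 ± 349 RPM in PG (SD, n = 6 each). Against 9.19% of all names, single names were called higher in PG in the neural list (miR-338, 1 of 12), the miR-130, miR-148 and miR-152 list (miR-130b-5p, 1 of 8, at -1.04 and not called with size factors) and the miR-23, miR-27 and miR-24 list (miR-23b, 1 of 8). For miR-23b the range was 331 to 1507 RPM in VG and 1412 to 4023 RPM in PG, with a log2 difference of -1.55 (SE 0.29, limma adjusted p = 0.0064). In the miR-26 and miR-29 list 1 of 7 names, miR-29b, was higher in VG. By mRNA, of the neural and glial markers given here, SOX10 was called higher in PG at -1.59, and TUBB3 and UCHL1 had -0.09 and 0.30 and were not called. In the lists of smooth muscle, skeletal muscle, let-7, miR-34 and miR-449, miR-17 to miR-92, miR-181, miR-216 and miR-217, and testis germ cells, 0 names were called in RPM over all 12 libraries. Without BMI PG replicate 2, miR-24-2-5p was called beside miR-23b, at -1.06, so that 2 of 8 names of that list were higher in PG. Likewise miR-206 of the skeletal muscle list was called higher in PG at -1.39 and miR-92b-3p of the miR-17 to miR-92 list higher in VG at 1.17.

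The top pair by abundance had no detectable difference between the glands. There were 340849 ± 111216 RPM of miR-148a-3p in VG and 317099 ± 150523 RPM in PG (SD, n = 6 each), with a log2 difference of 0.14 (SE 0.36, limma adjusted p = 0.84). For miR-143-3p, a miRNA of smooth muscle, the log2 difference was -0.05 with an SE of 0.68, and its spread was set by BMI VG replicate 1 at 41804 RPM and BMI PG replicate 3 at 30078 RPM. In the RNA-seq libraries of the same names the smooth muscle mRNAs summed to 649 TPM and 213.9 TPM, the lowest of VG and of PG. In BMI PG replicate 1 they summed to 436 TPM, where miR-143-3p was at 293936 RPM. Whether the level of miR-143-3p follows the share of smooth muscle was not tested. A higher level in VG was called for miR-21-5p, at 71368 ± 11514 RPM in VG and 31155 ± 20829 RPM in PG (SD, n = 6 each). Its log2 difference of 1.48 (SE 0.44, limma adjusted p = 0.039), 1.76 without BMI PG replicate 2, was not called in 9 of the 12 fits that left out a library.

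Some predicted miRNAs were called different between the glands at low levels. In PG, chr14_13709 was at 1.71 to 14.5 RPM against 0 to 0.31 RPM in VG, a log2 difference of -2.35. Also without overlap, chrUn_NW_018084979v1_46811 and chr1_529 were called higher in PG, at -1.39 and -1.16, the latter not with size factors. The entries higher in VG that follow overlapped with PG through BMI PG replicate 2. In VG, chr3_26315 was at 4.01 to 13.1 RPM and in PG at most at 6.03 RPM, in BMI PG replicate 2, a log2 difference of 2.65, and 3.07 without that library. The entries chr14_13765 and chr14_13777 had equal values, 0.79 to 12.1 RPM in VG, and in PG they were above 0 only in BMI PG replicate 2 at 2.88 RPM. In the other tissues they reached at most 0.07 RPM, so they were tested only because they were high in VG.

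The difference between the glands was not called different between the breeds for any entry (0 of 526 entries, 0%, limma interaction, smallest adjusted p = 0.74), with 24 entries at an unadjusted p below 0.05. The log2 difference of miR-375 was -7.51 within BMI and -8.82 within DSE, and that of miR-205 was 2.07 within BMI and 2.78 within DSE. Some called names were smaller within BMI, such as miR-142-5p at -0.63 against -2.13 within DSE. For miR-199a-3p the values were -0.46 and -1.63, and for miR-200b 0.45 and 1.56. Others were larger within BMI, such as miR-874 at -2.78 against -2.40 and miR-885-5p at -2.62 against -1.83. With 3 libraries for each breed and gland, differences between the breeds may have gone undetected.

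Set beside the bulbourethral gland (BG), epididymis (Epi) and testis (Tes), the miRNAs of this comparison followed different orders. The level of miR-375 was 22511 ± 9980 RPM in BG, 14.9 ± 22.0 RPM in Epi and 108 ± 57.8 RPM in Tes (SD, n = 6 each), so that PG lay between BG and the rest. By contrast, miR-885-5p stayed at a mean of at most 0.41 RPM in BG, Epi and Tes against 4.71 ± 2.61 RPM in PG (SD, n = 6). For miR-205 the level was 271 ± 176 RPM in BG and 229 ± 186 RPM in Epi, near the 252 ± 117 RPM of VG, and 7.01 ± 1.72 RPM in Tes (SD, n = 6 each). These levels are a description and were not tested here.

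**Figure D5:**
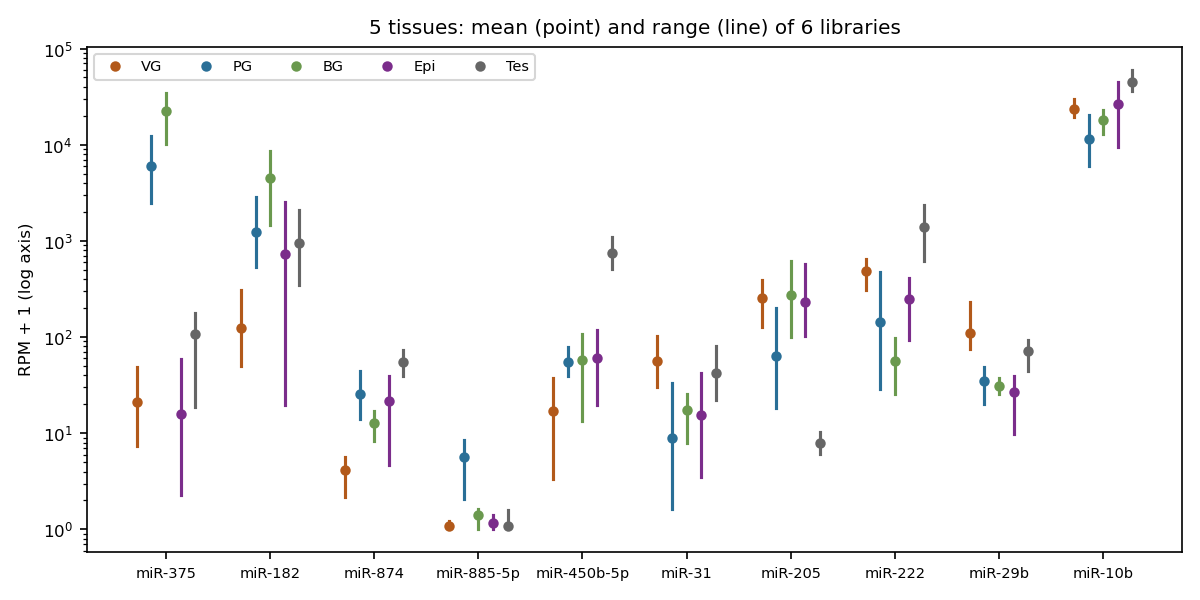
Mean (point) and range (line) of RPM + 1 on a log axis over 6 libraries of VG, PG, BG, Epi and Tes for 10 miRNAs. The mean of miR-375 was 5939 RPM in PG and 20.02 RPM in VG, and miR-885-5p was highest in PG at 4.71 RPM.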

How the data were processed

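Small RNA was sequenced in VG and PG, 3 libraries for each breed and gland. The authors trimmed reads, removed other small RNAs with Bowtie 1.3.1 and counted miRNAs with miRDeep2 on susScr11 (Sscrofa11.1), and deposited RPM with 2 decimals. RNA-seq values were deposited by the authors as TPM from Salmon 1.9.0, summed here over the transcripts of a gene. A coordinate column of the deposited annotation (another kind of value, used by the authors for transcript positions) served only to join transcripts to genes. Entries with 1 RPM in at least 3 of 30 libraries were fitted as log2(RPM + 1) with limma 3.58.1 (R 4.3.3), breed and gland in the model, and called at an adjusted p of 0.05 and a log2 difference of 1. Genes were treated alike, with 1 TPM in 3 libraries. Read numbers were worked back from the spacing of low RPM values (93.3% to 100% whole within 0.1 reads in the 12 libraries) for edgeR 4.0.16 and DESeq2 1.42.0 as alternatives, which called 72 and 84 entries. The fits were tested on simulated data, where limma on RPM missed many changes planted in entries of low abundance, and where changes planted in the most abundant entries shifted the RPM of others and added calls. Depth gives 13.1 to 21.7 reads for 1 RPM. Members and lists were chosen with earlier results of these data known. Named miRNAs are those called with no overlap of the glands, up to 10 known in each direction and 3 predicted by size, the 5 most abundant of each gland, and list members called or most abundant. The rule without BMI PG replicate 2 was added after its values were seen. Other tissues were described and not tested. Some marker genes are not reported here.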

Additional observations from a re-analysis of the deposited data

Results flagged for a closer look

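In groups of 6 libraries, a highest or lowest value that stood far from the rest was found 15 times among the named miRNAs and secretory marker genes (14 with a pair of equal entries counted once). Chance flags about 1 in 20 groups, but no excess can be read from this count, since some miRNAs were named by a rule added after the values of BMI PG replicate 2 were seen and the secretory genes share its libraries. In BMI PG replicate 2 these were miR-221-3p at 395.72 RPM, chr3_26315 at 6.03 RPM, chr14_13765 and chr14_13777 at 2.88 RPM each, and by mRNA PSP-I at 169569 TPM, PSP-II at 6078 TPM, AWN at 52018 TPM and BSP1 at 14792 TPM. In BMI VG replicate 1 they were miR-29b at 231.17 RPM, miR-96-5p at 198.68 RPM and miR-143-3p at 41804 RPM. In BMI PG replicate 3 they were miR-143-3p at 30078 RPM, miR-214-3p at 42.29 RPM and miR-27b-3p at 4707 RPM. In DSE VG replicate 2, miR-885-3p was at 0.05 RPM, the value of 1 read in that library, where the other VG libraries were at 0. With the others at 0, any value above 0 is flagged. The cause was not tested.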

How the results depend on the processing

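Against 63 calls (16 higher in VG, 47 higher in PG), size factors from the median of ratios gave 30 higher in VG and 21 higher in PG, and TMM factors 30 and 19. On recovered reads edgeR called 39 higher in VG and 33 higher in PG, and DESeq2 41 and 43. With the replicate block 41 entries were called, 28 of them higher in PG. The labels do not say that the numbers pair the libraries, and the study speaks of paired samples without saying what was paired. The correlation of deviations of same-numbered small RNA libraries was -0.60 for BMI replicate 3, -0.39 for replicate 1 and 0.55 for replicate 2. In DSE it was 0.083 to 0.14, and each library correlated best with its own number. By mRNA it was -0.017 to 0.11 in DSE, where VG replicate 2 correlated better with the other numbers. In BMI, VG replicate 1 correlated best with PG replicate 3, at 0.76 by miRNA and 0.19 by mRNA. These values do not settle whether the numbers pair the libraries. Leaving out 1 library gave 37 to 87 calls, 12 to 17 higher in VG and 25 to 72 higher in PG, the lowest without DSE VG replicate 1 (39 without DSE PG replicate 2 and 41 without DSE VG replicate 3) and the highest without BMI PG replicate 3. For the breeds, leaving out 1 library gave 0 to 1 calls, chrX_48760 without BMI PG replicate 2 and chr9_45137 without DSE PG replicate 1. The mRNA count of 2878 became 4393 with a pseudocount of 0.1 TPM, and 2508 to 3535 with 1 library left out. The cause was not tested. Of 68 named miRNAs, 37 kept their side of the threshold in all alternatives that gave an adjusted p, and none of the called ones changed direction. Below about 1 RPM a value rests on 13.1 to 21.7 reads or fewer, and intervals for counting error were not computed.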
